A study of Danio rerio with 35 samples.

Results

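AP-1 is a family of dimeric transcription factors, and the genes described here are 9 members of it or of its close relatives, together with the immediate-early factor egr1. They are junba, junbb, jun, jund, fosl1a, fosl2, fosab, fosb and atf3, picked by name from the 14781 genes of the count table. All 10 have a row in the table, and all 10 had enough counts to be tested. The data are 8 polyA RNA libraries made from the whole hearts of adult zebrafish. In 4 of them the fish overexpressed klf1, a Krüppel-like zinc-finger factor known from red blood cell development, and the other 4 came from wild-type (WT) fish. The labels name no promoter, no cell type and no duration for the overexpression, and they give no age beyond adult and no sex. Whether each library stands for its own animal is not stated either, so p-values measure the spread between these libraries, which may be technical. The series title names cardiomyocyte renewal as its question, and the comparison here asks how far the AP-1 and immediate-early genes differ in klf1 hearts.

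Jun and Fos proteins pair through a leucine zipper and bind DNA with the basic region next to it. Jun proteins can pair with each other or with Fos proteins, whereas Fos proteins need a Jun partner. In mammals many of these genes are immediate-early genes, transcribed within minutes of a growth signal, a wound or mechanical stress without new protein synthesis. Egr1 is a zinc-finger factor induced in the same way, and the transcripts of the group are short-lived. Dissection and other handling of a tissue can therefore set them off, and for this reason the value of each library is given below.

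Library totals ranged from 9829896 to 13083853 counts, and a count of 3, the limit that a count of 0 allows, came to between 0.179 and 0.378 CPM, the count relative to the library size after scaling by TMM factors. This limit covers counting error only. klf1 itself read 595, 655, 733 and 602 CPM in the klf1 libraries and 174, 268, 296 and 128 CPM in the WT libraries, with no overlap (log2 fold change 1.58 ± 0.24 SE, edgeR adjusted p = 0.000126). The cardiomyocyte markers, which define the labelled tissue, summed to 28488 to 45083 CPM in klf1 and 209482 to 246466 CPM in WT libraries, with 10 of 11 tested lower and 0 higher. Marker counts use an edgeR adjusted p under 0.05, at which 32.2% of all 10493 genes tested were higher and 29.4% lower. Macrophage and granulocyte markers summed to 1804 to 2359 CPM in klf1 and 389 to 875 CPM in WT libraries (19 of 21 tested higher, 0 lower, none at 0 in all libraries). Endothelial markers summed to 2506 to 4259 CPM in klf1 and 2277 to 3369 CPM in WT libraries (2 of 18 higher, 6 lower, median log2 fold change -0.14). A large part of that sum was vwf, 1 of the 2 higher. It read 1079 to 2375 CPM in klf1 and 650 to 1225 CPM in WT libraries. Epicardial and fibroblast markers summed to 1977 to 3702 CPM in klf1 and 1145 to 1467 CPM in WT libraries (7 of 12 higher, 0 lower). Of the mural markers 2 of 6 were higher and 1 lower, of the erythroid markers 1 of 10 higher and 4 lower, of the lymphocyte and thrombocyte markers 4 of 7 higher and 1 lower, and of the glial and neuronal markers 2 of 5 higher and 1 lower. The mural marker pdgfrb, the erythroid gene ba1 and the neuronal gene elavl3 were at 0 in all 8 libraries. Whether these 0 values come from absent transcripts or from the annotation used for counting was not tested. In whole hearts, a change in the number of cells of a type and a change in RNA per cell cannot be told apart, and the part these cell types have in the results below was not tested.

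Of the 10 genes, 6 were higher in klf1 hearts and 0 lower at an edgeR adjusted p under 0.05 over all genes tested; 0 were lower also at an unadjusted p under 0.05 and with DESeq2 or limma-voom. Both junB paralogs, both Fos-related antigens, fosab and egr1 rose, while jun, jund, fosb and atf3 were not called. Among all 10493 genes tested, 32.2% were higher and 29.4% lower, 61.6% in either direction. The median log2 fold change was 2.12 over the 10 genes and 0.03 over all genes tested. In 4 of the 10, junba, junbb, fosl1a and fosl2, every klf1 library lay above every WT library, as it did for 29.8% of all genes tested. In 0 of the 10 did every klf1 library lie below every WT library, against 27.2% of all genes tested. These 4 were called in each of 18 alternative fits, against 9 of 18 for fosab and 10 of 18 for egr1.

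**Figure D1:**
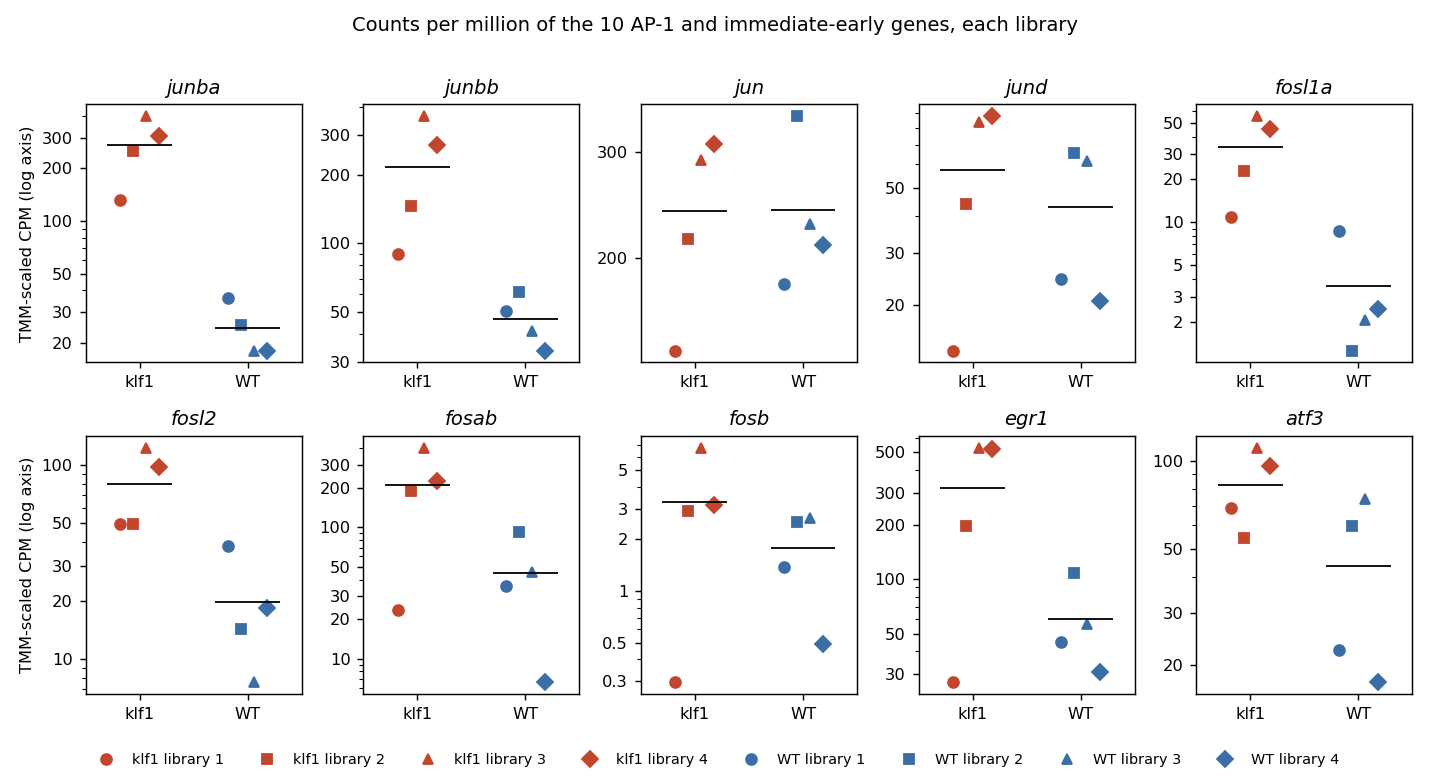
TMM-scaled CPM (log axis, scaled separately in each panel) of the 10 genes in the 4 klf1 and 4 WT libraries. Symbols mark the libraries and black lines the means. For junba, junbb, fosl1a and fosl2 the genotypes do not overlap, and klf1 library 1 is the lowest klf1 library for 9 of the 10 genes.

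Among the Jun genes, whose products every Fos protein needs as a partner, the junB paralogs rose and jun did not. junba, a zebrafish counterpart of mammalian JUNB, read 131, 250.3, 398 and 305 CPM in klf1 libraries 1 to 4 and 36.4, 25.3, 18.1 and 18.1 CPM in WT libraries 1 to 4. The lowest klf1 library was thus above the highest WT library by a wide margin. Its mean was 271 ± 111 CPM in klf1 and 24.5 ± 8.62 CPM in WT hearts (SD, n = 4 each), 11.1-fold apart (log2 fold change 3.47 ± 0.34 SE, edgeR adjusted p = 4.18e-06). The paralog junbb read 90.2, 146, 364 and 271 CPM in the klf1 libraries and 50.6, 61.1, 41.3 and 33.7 CPM in the WT libraries. Again all klf1 libraries were higher, with klf1 library 1 nearest to the WT values. The means of junbb were 218 ± 123 CPM in klf1 and 46.7 ± 11.8 CPM in WT hearts (4.67-fold; log2 fold change 2.22 ± 0.39, edgeR adjusted p = 0.000543). Reads could be split between such paralogs, since the counting rule is not given in the sources used here.

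jun, whose product is the Jun protein most often paired with Fos in mammals, read 140.0, 215, 291 and 310.1 CPM in the klf1 libraries and 181, 345, 228 and 209.9 CPM in the WT libraries. The groups overlapped throughout, the highest value being WT library 2. jun averaged 239 ± 77.8 CPM in klf1 and 241 ± 71.9 CPM in WT hearts, a log2 fold change of -0.01 ± 0.26 with a 95% interval of -0.58 to 0.55 (edgeR adjusted p = 0.977). This fold change depended on the scaling: scaling by DESeq2's size factors gave -0.04, by the upper quartile 0.06, and by library totals alone 0.71, where jun was called (edgeR adjusted p = 0.0326). The median of all genes tested moved with the scaling, to 0.01, 0.11 and 0.75, and relative to that median jun lay between -0.05 and -0.04 in all 4 scalings. jund, the Jun gene that mammalian cells keep on at rest, read 13.9, 44.0, 83.5 and 87.5 CPM in the klf1 libraries and 24.5, 65.6, 61.5 and 20.6 CPM in the WT libraries. Both genotypes held high and low libraries, and klf1 library 1 was the lowest of all 8. The log2 fold change of jund was 0.41 ± 0.56, with a 95% interval of -0.84 to 1.67 (edgeR adjusted p = 0.547), so a change of either sign and of considerable size was not detectable against this spread.

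Of the Fos genes, the Fos-related antigens fosl1a and fosl2, which in mammals appear later than Fos after a stimulus and last longer, separated the genotypes. fosl1a read 10.99, 23.0, 55.6 and 45.4 CPM in the klf1 libraries and 8.63, 1.26, 2.05 and 2.45 CPM in the WT libraries. WT library 1 stood apart from the other WT libraries and came close to klf1 library 1. The means were 33.7 ± 20.4 CPM in klf1 and 3.60 ± 3.39 CPM in WT hearts (SD, n = 4 each; 9.38-fold), a log2 fold change of 3.21 ± 0.65 (edgeR adjusted p = 0.00172). Without WT library 1 it was 4.12. fosl2 read 49.5, 49.5, 123 and 97.6 CPM in the klf1 libraries and 38.2, 14.2, 7.60 and 18.3 CPM in the WT libraries, with WT library 1 again the highest of its genotype. The mean of fosl2 was 79.9 ± 36.6 CPM in klf1 and 19.6 ± 13.2 CPM in WT hearts (4.08-fold; log2 fold change 2.03 ± 0.47, edgeR adjusted p = 0.00402).

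fosab, the zebrafish counterpart of the c-Fos gene and the classical immediate-early gene, read 23.5, 188, 404 and 225 CPM in the klf1 libraries and 35.7, 91.6, 45.7 and 6.62 CPM in the WT libraries. In klf1 libraries 2 to 4 it was above every WT library, while klf1 library 1 was below 3 of the 4 WT libraries. The means were 210.0 ± 156 CPM in klf1 and 44.9 ± 35.3 CPM in WT hearts (4.68-fold; log2 fold change 2.23 ± 0.84, edgeR adjusted p = 0.0415). The call rested on single libraries. It was kept without klf1 library 1 (log2 fold change 2.58, edgeR adjusted p = 0.0065) and without WT library 2 (2.83, 0.0254), and lost on leaving out any of the other 6 libraries, with edgeR adjusted p between 0.0643 and 0.116. On log2 CPM, the exact permutation test (two-sided, all 70 ways to divide 8 libraries into groups of 4) gave p = 0.114, where 0.0286 is the smallest this design allows. fosb, a close relative of fosab, was sparse, with 4, 44, 98 and 53 counts in the klf1 libraries and 12, 20, 22 and 4 counts in the WT libraries. It read 0.295, 2.89, 6.77 and 3.16 CPM in klf1 and 1.38, 2.52, 2.65 and 0.490 CPM in WT libraries, so klf1 library 1 was again the lowest of all. Its log2 fold change was 0.90 ± 0.69 (95% interval -0.61 to 2.41, edgeR adjusted p = 0.278). With 1 library left out it was called in 1 of 8 fits, without klf1 library 1 (1.25, edgeR adjusted p = 0.032), and it was lowest without klf1 library 3 (0.29, edgeR adjusted p = 0.725).

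egr1 read 26.9, 196, 532 and 520.2 CPM in the klf1 libraries and 44.7, 108, 56.6 and 30.6 CPM in the WT libraries. As with fosab, klf1 libraries 2 to 4 exceeded every WT library, but for egr1 klf1 library 1 lay below all 4 WT libraries. The means were 319 ± 249 CPM in klf1 and 59.9 ± 33.6 CPM in WT hearts (5.32-fold; log2 fold change 2.41 ± 0.77, edgeR adjusted p = 0.0209). The exact permutation test gave a two-sided p of 0.171. The call was lost without klf1 library 3 or 4 or WT library 1, 3 or 4 (edgeR adjusted p 0.0517 to 0.066), and without klf1 library 1 the log2 fold change was 2.78 (edgeR adjusted p = 0.000639). In RefSeq's GRCz12tu assembly, which is not the build of these counts, egr1, fosab, fosl2 and junbb each overlap another gene. Whether reads were counted by strand is not given in the sources used here, so reads of overlapping genes may not have been told apart. atf3, a stress-induced bZIP factor that pairs with Jun proteins and often represses its targets in mammals, read 68.7, 54.4, 111 and 95.7 CPM in the klf1 libraries and 22.4, 59.9, 74.1 and 17.4 CPM in the WT libraries. The WT libraries formed a low and a high pair, and the high pair reached into the klf1 range. Its log2 fold change was 0.92 ± 0.44 (95% interval -0.05 to 1.897, edgeR adjusted p = 0.0914). With 1 library left out it was called in 1 of 8 fits, without WT library 3 (1.303, edgeR adjusted p = 0.0323), and the other 7 gave 0.65 to 1.11 (edgeR adjusted p 0.0730 to 0.199). It was also called by limma-voom (1.13, adjusted p = 0.0361).

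**Figure D2:**
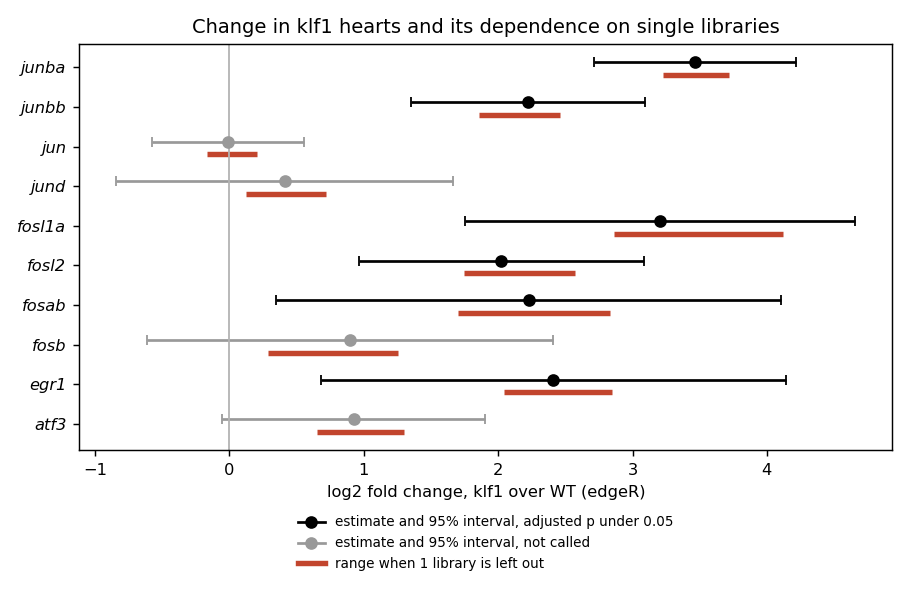
Log2 fold change (klf1 over WT, edgeR) of each gene with its 95% interval, in black where the adjusted p was under 0.05 and in grey otherwise. Red bars span the estimates with 1 library left out. junba has the largest value (3.47) and jun lies at -0.01; the widest intervals are those of fosab and egr1.

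The balance between Jun genes can be read within a library, as a ratio of counts that no scaling touches. These 8 ratios were chosen after values had been seen, and they compare a ratio between genotypes, not the levels of genes of different length. The count ratio of junba to jun was 0.936, 1.16, 1.37 and 0.983 in klf1 libraries and 0.201, 0.0734, 0.0794 and 0.0864 in WT libraries. Even klf1 library 1, low for both genes, held a ratio close to the other klf1 libraries. The ratio of junbb to jun averaged 0.862 ± 0.278 in klf1 and 0.20 ± 0.054 in WT hearts (SD, n = 4 each), and that of junba to junbb 1.35 ± 0.294 in klf1 and 0.527 ± 0.138 in WT hearts. These 3 ratios did not overlap between genotypes, and each had an exact two-sided permutation p of 0.0286, the smallest possible. Adjusted over the 8 ratios it was 0.0571, above 0.05. Even fully separated ratios could pass 0.05 only if more of the 8 had reached the smallest p, so this adjusted value decides nothing. jund to jun showed no such separation, at 0.218 ± 0.0876 in klf1 and 0.174 ± 0.0747 in WT hearts (exact permutation p = 0.429, adjusted 0.571). Among Fos genes, fosb to fosab was lower in all 4 klf1 libraries, at 0.0147 ± 0.00181 against 0.0496 ± 0.0206 in WT hearts (exact permutation p = 0.0286, adjusted 0.0571). The fosb to fosab ratio rests on few fosb counts, only 4 in klf1 library 1 and 4 in WT library 4, so its SDs may understate its error. Ratios of fosl1a, fosl2 and egr1 to fosab overlapped widely (exact permutation p 0.371 to 1, adjusted 0.571 to 1).

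**Figure D3:**
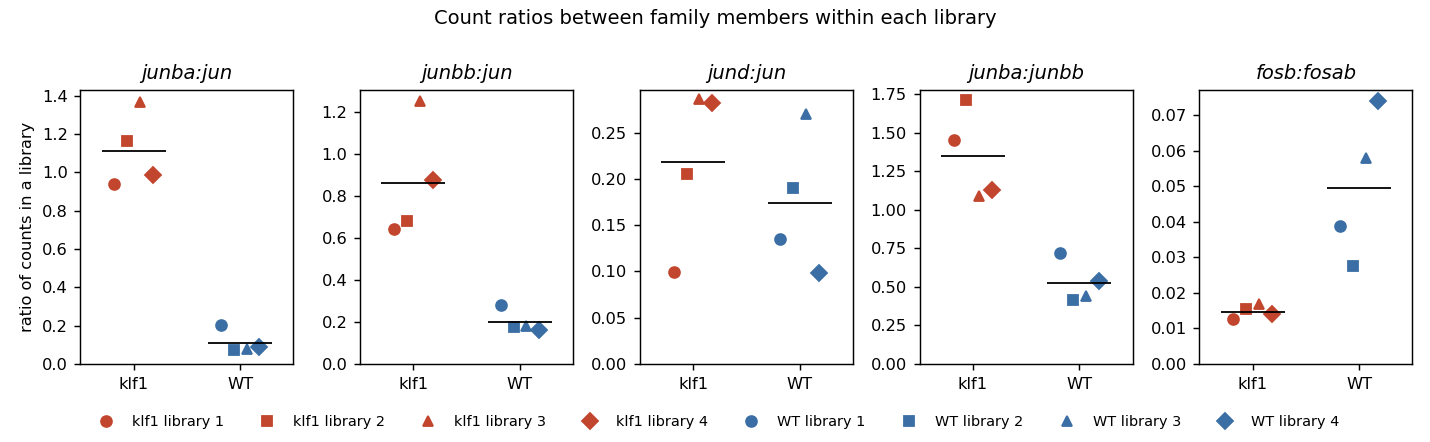
Count ratios between family members within each library (klf1 libraries left, WT libraries right; black lines are means; axes start at 0). The junba to jun ratio lies between 0.936 and 1.37 in klf1 and between 0.0734 and 0.201 in WT libraries, whereas jund to jun overlaps.

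Spread between libraries was large for the whole group in both genotypes. The SD of log2 CPM over the 4 klf1 libraries had a median of 0.98 over the 10 genes (range 0.46 to 2.02), against 0.22 over all genes tested. In WT libraries it was 0.91 (range 0.37 to 1.59) against 0.24, and all 10 genes exceeded the median of tested genes in both genotypes. fosab was the most variable in WT hearts, 13.8-fold between its highest and lowest library, and its SD exceeded that of 99.9% of genes tested in either genotype. egr1 varied 19.7-fold and fosb 22.9-fold between klf1 libraries. The steadiest of the group in WT hearts was junbb, at 1.81-fold, and in klf1 hearts atf3, at 2.04-fold.

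The spread was shared between most of the genes in klf1 libraries and less so in WT libraries. klf1 library 1 was the lowest klf1 library for 9 of the 10 genes, against 33.6% of all genes tested, and klf1 library 3 the highest for 8, against 23.6%. In WT hearts, library 4 was lowest for 6 of the 10 genes, against 23.0% of all genes tested, and library 2 highest for 5, against 21.3%. WT library 1 was the highest WT library for 3, fosl1a, fosl2 and junba, against 22.7% of all genes tested, and the lowest for jun. The 10 genes summed to 555, 1168, 2368 and 1960 CPM in klf1 libraries 1 to 4 and to 443, 774, 537 and 358 CPM in the WT libraries. For 5 genes, fosab, fosb, jun, jund and egr1, klf1 library 1 lay below the WT mean, and for junba, junbb, fosl1a and fosl2 it lay above every WT library. In the same library klf1 read 595 CPM, against 655, 733 and 602 CPM in klf1 libraries 2 to 4. Macrophage and granulocyte markers summed to 1804 CPM there, against 1995, 2359 and 1918 CPM. The sums of the endothelial markers, at 2506 CPM, and of the epicardial and fibroblast markers, at 1977 CPM, were also lowest in klf1 library 1 among klf1 libraries. In klf1 library 1 the erythroid markers summed to 801 CPM, against 969, 1328 and 1150 CPM in klf1 libraries 2 to 4. By single genes, this klf1 library was lowest for 8 of 10 erythroid and 11 of 18 endothelial markers, against 33.6% of all genes tested. The same held for 6 of 12 epicardial and fibroblast, 3 of 6 mural and 4 of 7 lymphocyte and thrombocyte markers. It held for 7 of 21 macrophage and granulocyte, 2 of 5 glial and neuronal and 1 of 11 cardiomyocyte markers. The part of these markers in the low values of klf1 library 1 was not tested.

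The genes nearest to fosab and egr1 in this library pattern were other immediate-early genes. Likeness was measured as the root mean square difference in log2 CPM deviation from the genotype mean over the 8 libraries, among 7566 well-expressed genes. Nearest to both was btg2, an antiproliferative early-response gene (0.36 to fosab and 0.32 to egr1, in log2 units). dusp2, ier2, egr1 itself and nr4a1 followed for fosab (0.61 to 0.68), and nr4a1, dusp1, sik1 and socs3a for egr1 (0.37 to 0.50). With 8 libraries and this many genes, close matches are a description only. btg2 read 57.8, 429.7, 944 and 737 CPM in klf1 and 319.7, 684, 402 and 118 CPM in WT libraries, low in klf1 library 1 and in WT library 4 as fosab was. Unlike fosab and egr1, none of the other 7 genes was called between genotypes. They were picked for sharing the large spread of fosab or egr1, with SEs of 0.53 to 0.78. Only large changes could therefore have been called. btg2 had a log2 fold change of 0.51 ± 0.72 (edgeR adjusted p = 0.568). The MAP kinase phosphatase gene dusp1 stood at 133 ± 82.8 CPM in klf1 and 118 ± 42.8 CPM in WT hearts, a log2 fold change of 0.16 ± 0.55 (edgeR adjusted p = 0.818), and the small early-response gene ier2 at 106 ± 60.3 CPM in klf1 and 73.8 ± 36.8 CPM in WT hearts (0.53 ± 0.53, edgeR adjusted p = 0.413). The nuclear receptor gene nr4a1 stood at 131 ± 92.3 CPM in klf1 and 372 ± 226 CPM in WT hearts (-1.50 ± 0.78, edgeR adjusted p = 0.122).

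**Figure D4:**
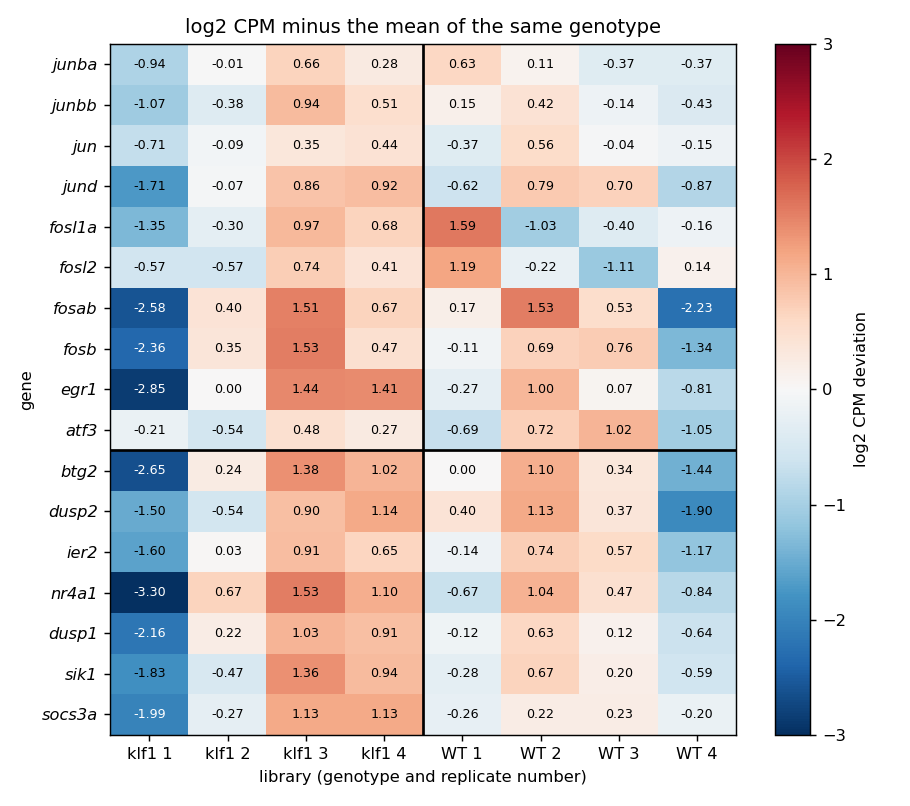
Log2 CPM of each gene minus the mean of the same genotype, for the 10 genes (above the line) and the 7 genes nearest to fosab or egr1 in this pattern (below it). Columns are libraries, klf1 left and WT right. klf1 library 1 is low and klf1 library 3 high in nearly all rows. Among the 10 genes, the shifts in klf1 library 1 are largest for fosab, fosb and egr1. They are smaller for all others, both for called genes such as junba (-0.94) and for jun (-0.71), which was not called.

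Further immediate-early genes went both ways, as did all genes tested (32.2% higher and 29.4% lower). Of 45 tested, 14 were higher and 9 lower (median log2 fold change 0.16). For 33 of them klf1 library 1 was the lowest klf1 library, against 33.6% of all genes tested. ctgfa, a matricellular protein gene, was 503 ± 78.6 CPM in klf1 and 45.5 ± 8.35 CPM in WT hearts (log2 fold change 3.47 ± 0.19, edgeR adjusted p = 5.29e-08), the mRNA decay factor zfp36l1a rose by 2.36 ± 0.18, and ier5l by 2.26 ± 0.21. egr3, a relative of egr1 named after its values were seen, read 6.27, 14.5, 27.9 and 34.4 CPM in klf1 and 2.99, 1.64, 1.09 and 2.33 CPM in WT libraries (3.36 ± 0.55, edgeR adjusted p = 0.000343). Its groups did not overlap, and klf1 library 1 was the lowest of its genotype here too. zfp36l1b, among the highest of the list in CPM, stood at 286 ± 83.6 CPM in klf1 and 353 ± 46.7 CPM in WT hearts and was not called (edgeR adjusted p = 0.236). Among the 9 lower genes, klf11b (-2.08 ± 0.21, edgeR adjusted p = 4.12e-06) and zfp36l2 (-1.76 ± 0.19, edgeR adjusted p = 6.26e-06) fell without overlap. Both klf11b and zfp36l2 were named after their values were seen. gadd45gb.1 was at 0 in all 8 libraries, and whether this came from absent transcripts or from the annotation was not tested.

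Other bZIP genes, only some of them possible dimer partners of the Jun and Fos proteins, were higher for 7 of 14 tested and lower for 2. Their median was 0.42. Of all genes tested, 32.2% were higher and 29.4% lower. The small Maf genes maff and mafk, whose products lack an activation domain, rose by 1.49 ± 0.15 and 1.16 ± 0.14 on the log2 scale, and the large Maf gene mafbb by 2.43 ± 0.20 (edgeR adjusted p 9.85e-07 to 2.25e-05). jdp2b, named after its values were seen, is a counterpart of a mammalian Jun dimerization protein that opposes AP-1. It read 10.3, 17.1, 35.5 and 31.8 CPM in klf1 and 5.18, 5.67, 6.03 and 2.57 CPM in WT libraries, without overlap and in the same order of klf1 libraries as junbb (2.28 ± 0.39, edgeR adjusted p = 0.0004). The 2 lower genes were atf7b, at 18.9 ± 0.895 CPM in klf1 and 26.4 ± 1.37 CPM in WT hearts, and the C/EBP gene cebpd, at 216 ± 137 CPM in klf1 and 564 ± 51.6 CPM in WT hearts (-1.38 ± 0.45, edgeR adjusted p = 0.02).

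Upstream of these genes lie the MAP kinases and serum response factor (Srf), which activate their promoters. Of 31 tested genes of this module, 12 were higher and 5 lower (median 0.14), against 32.2% and 29.4% of all genes tested. The p38 kinase genes mapk14a and mapk11 rose by 1.43 ± 0.13 and 2.09 ± 0.24 on the log2 scale, and srfb fell to 9.89 ± 1.48 CPM in klf1 hearts, against 40.7 ± 6.5 CPM in WT hearts (edgeR adjusted p = 4.91e-07). Besides srfb, the other 4 that fell were mapk8b (-1.14 ± 0.18), map2k4b (-0.79 ± 0.14), the p38 kinase gene mapk14b (-0.75 ± 0.16) and map3k7 (-0.44 ± 0.12). The members highest in CPM, mapkapk2a (-0.02 ± 0.13) and map2k1 (-0.11 ± 0.14), were not called (edgeR adjusted p = 0.929 and 0.504). Of 16 tested brakes and cofactors, 3 were higher and 4 lower (median 0.06), against the same 32.2% and 29.4%. The higher ones were spry1, an inhibitor of receptor tyrosine kinase signalling (1.87 ± 0.30), the phosphatase gene dusp8a (1.03 ± 0.19) and spred2b (0.56 ± 0.13). The lower ones were the phosphatase genes dusp22b (-1.41 ± 0.14), dusp4 (-1.18 ± 0.24), dusp7 (-0.75 ± 0.17) and dusp6 (-1.02 ± 0.26). nab2, a corepressor that Egr1 induces, was named after its values were seen. It stood at 4.22 ± 1.05 CPM in klf1 and 2.65 ± 0.896 CPM in WT hearts and was not called (edgeR adjusted p = 0.0543).

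Genes listed here as AP-1 targets were mostly higher: 25 of 32 tested rose and 3 fell, against 32.2% and 29.4% of all genes tested. Their median was 1.78. The list was chosen with earlier results of these data known, so these counts only describe it. Whether AP-1 controls its genes in these hearts was not tested. This list mixes matrix proteases, keratins and growth factors that other factors and cell types also control, and in the same libraries macrophage and granulocyte markers were higher for 19 of 21. The metalloproteinase inhibitor timp2b stood at 356 ± 99.1 CPM in klf1 and 14.9 ± 2.86 CPM in WT hearts (log2 fold change 4.57 ± 0.26, edgeR adjusted p = 7.25e-08). On the log2 scale, the ligand gene hbegfa rose by 2.24 ± 0.15, the annexin anxa2a by 2.03 ± 0.20 and the keratin krt8 by 0.78 ± 0.19. The lower ones were itga5 (-1.51 ± 0.20), vim (-1.25 ± 0.16) and the autophagy receptor sqstm1 (-0.75 ± 0.12). The 4 not called were txnrd1, gclc, tgfb1a and vegfaa. klf1 library 1 was the lowest klf1 library for 9 of the 32 targets, against 9 of the 10 AP-1 and immediate-early genes and 33.6% of all genes tested. It was also the lowest for 9 of 14 other bZIP genes and 11 of 16 brakes and cofactors. In the MAP kinase and Srf module it was lowest for 17 of 31 genes.

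Heat shock and related stress genes, only some of which are inducible by handling, showed no common direction. Of 23 tested, 6 were higher and 7 lower, with a median of -0.05, against 32.2% higher and 29.4% lower of all genes tested. hsc70 fell to 82.6 ± 21.1 CPM in klf1 hearts, against 825 ± 51 CPM in WT hearts (log2 fold change -3.32 ± 0.20, edgeR adjusted p = 8.82e-08), while the related hspa8 rose to 4515 ± 802 CPM in klf1 hearts, against 1935 ± 207 CPM in WT hearts (1.22 ± 0.18). hspb8, a small heat shock gene, rose by 1.37 ± 0.16 and the polyubiquitin gene ubb fell by 1.39 on the log2 scale. The inducible gene hsp70l stood at 10.7 ± 4.22 CPM in klf1 and 11.5 ± 3.59 CPM in WT hearts (edgeR adjusted p = 0.793). Its relative hsp70.1 was higher without overlap, at 4.86 ± 0.814 CPM in klf1 and 1.55 ± 0.737 CPM in WT hearts (1.65 ± 0.30, edgeR adjusted p = 0.000482). Both hsp70l and hsp70.1 were named after their values were seen. In klf1 library 1 the list summed to 13985 CPM, against 11762, 14122 and 13814 CPM in klf1 libraries 2 to 4. Abundant genes such as hspa8, at 5351 CPM in klf1 library 1, weigh heavily in this sum. By single genes, klf1 library 1 was the lowest klf1 library for 7 of the 23 tested, against 33.6% of all genes tested.

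**Figure D5:**
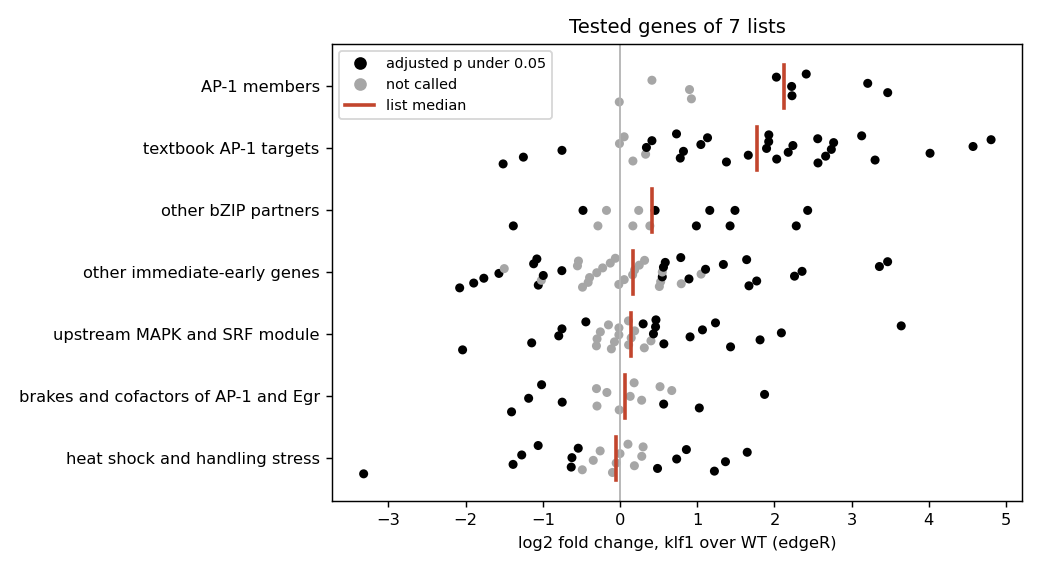
Log2 fold change (klf1 over WT, edgeR) of every tested gene in 7 lists; black points passed an adjusted p under 0.05, grey points did not, and red lines are list medians. The medians of the 10 AP-1 and immediate-early genes (2.12) and of the listed AP-1 targets (1.78) lie to the right of the other 5, which run from -0.05 to 0.42. All lists were chosen with earlier results of these data known.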

How the data were processed

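The labels' protocols name the Qiagen miRNeasy kit for RNA and the Kapa stranded mRNA kit, a strand-marking chemistry, for libraries. The authors deposited raw whole-number counts for each gene and library, neither normalized nor pooled, as the files' own headers and values show. danRer10, Bowtie2 2.2.8 and deepTools 3.1.2 appear in the submitters' processing notes without their roles. For the RNA counts, the aligner, counter, annotation and use of strand were not given in the sources used here. All 8 single-library files equalled a column of the joint table. The other 27 of 35 samples were not analysed here.

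In R 4.3.3, edgeR 4.0.16 kept 10493 genes (filterByExpr), took TMM factors and ran the robust quasi-likelihood F-test on genotype alone, two-sided, with Benjamini-Hochberg adjustment over all genes tested. SEs are approximate: the absolute log2 fold change over the root of F. A prior count of 2 went into SDs of log2 CPM and permutation tests. The test was checked on simulated counts in which few genes changed, as many up as down. This check did not cover a shift as broad as that between these genotypes. Alternatives were DESeq2 1.42.0, limma-voom (limma 3.58.1), other scalings and filters, thinned counts, a replicate block and leaving out each library.

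The 10 genes and the 15 lists (372 entries) were chosen with earlier results of these data known. Named genes are the 10, klf1, per list the 3 smallest adjusted p and the 2 highest mean log2 CPM, members of counts of 5 or fewer, and the 5 genes nearest fosab and egr1 among genes averaging at least 3 in log2 CPM; others are marked in the text. Library numbers only name libraries and do not pair the genotypes. Not every gene that the rule selects is reported here.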

Additional observations from a re-analysis of the deposited data

Results flagged for a closer look

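fosl1a read 8.63 CPM in WT library 1, far from the other WT libraries, at 1.26, 2.05 and 2.45 CPM; the gap to the nearest took 0.838 of the group's range, above Dixon's 95% critical value for 4 samples. Of 22 groups checked (klf1 and the 10 genes in each genotype), 1 was flagged, and chance flags about 1 in 20. The cause was not tested. The spread of fosab and egr1 in klf1 libraries did not meet this criterion on the CPM scale.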

How the results depend on the processing

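junba, junbb, fosl1a and fosl2 kept their direction and their call in 18 of 18 alternatives, with log2 fold changes of 3.23 to 4.20, 1.86 to 2.96, 2.86 to 4.12 and 1.74 to 2.75. Of the 10 genes, 4 to 7 were called higher when 1 library was left out (7 without klf1 library 1) and 0 lower. The count was 6 with DESeq2, 5 with limma-voom, 4 without a filter on low counts and 9 with library totals, in which jund was the exception. With library totals, 6836 of all genes were called higher and 1398 lower, against 3377 and 3084 with TMM factors, and the median gene moved to 0.75. fosab and egr1 lost their calls without a filter (edgeR adjusted p 0.102 and 0.0551) and with limma-voom (0.0522 and 0.0552); the cause was not tested. jun changed sign, at 0.061 with upper-quartile factors, 0.71 with library totals, 0.012 without a filter, 0.0090 with at least 50 counts in 4 libraries (where fosb was not tested), and 0.02 to 0.21 without klf1 library 1, klf1 library 2 or WT library 2 (-0.17 to 0.21 over all left-out libraries); it was called only with library totals. With library totals the counts of higher and lower genes were 12 and 0 for other bZIP genes, 25 and 4 for other immediate-early genes, 26 and 1 for the MAP kinase and Srf module, 11 and 1 for brakes and cofactors, 14 and 3 for heat shock genes, and 29 and 2 for AP-1 targets. The labels number the RNA libraries without repeats, and the numbers in the column names did not pair them (correlations of deviations -0.19 to 0.09; 2 of 8 libraries correlated best with their own number). With that number as a replicate block, 5 of the 10 genes were called higher: atf3 was gained, and fosab (edgeR adjusted p = 0.0828) and egr1 (0.0854) were not called. Depth limits fosb, which had 4 counts in 2 libraries.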
